A study of Mus musculus with 18 samples.

Results

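The nuclear genes of respiratory complexes II to V were followed in single mouse oocytes before and after maturation in vitro. The genes were chosen by name: succinate dehydrogenase subunits Sdha to Sdhd, Cyc1 and every Uqcr gene, every Cox4 to Cox8 gene, and every Atp5 gene, leaving out symbols of annotated pseudogenes that contain "-ps". The rule found 49 of the 47069 genes in the deposited tables: 4 of complex II, 9 of complex III, 19 of complex IV and 17 of complex V. All oocytes came from wild-type C57BL/6 mice, and 18 single oocytes were sequenced by SMART-seq2, 3 in each of 6 groups. The groups were GV oocytes, held in prophase of meiosis with an intact nucleus called the germinal vesicle, metaphase II oocytes matured in vitro (IVM-MII), and metaphase II oocytes matured in vitro with overnight MSC co-culture (MSC-IVM-MII), each from mice of 6 weeks (6wk) and of 12 months (12m). GV and IVM-MII oocytes had no co-culture, and the labels do not spell out MSC. The labels name no animals, so oocytes of a group may share a mouse, each group counts as 1 sample, and no test between groups was possible. Each SD is of 3 oocytes.

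Complexes II, III and IV pass electrons from succinate and ubiquinol to oxygen, and complexes III and IV pump protons across the inner mitochondrial membrane. Complex V, the ATP synthase, lets the protons flow back and makes ATP. Complex II is encoded in the nucleus alone, whereas complexes III, IV and V each join nuclear subunits with subunits made from mitochondrial DNA. Mouse oocytes rely on mitochondria for ATP, and during maturation transcription is silent while many stored mRNAs are degraded and others are kept or given longer poly(A) tails.

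Sequences of 2 kinds are shown because the members differed so widely after maturation: promoters, to show the motifs that many members share, and the ends of transcripts, where signals for poly(A) tail length lie. RefSeq promoters (GRCm38.p6, 250 bases before to 50 after the gene's start) matched 34 of the 49 members. The letters CCGGAAG, the core bound by ETS family factors such as GABP, occurred on either strand in 12 of the 34 promoters (35.3%) and in 9.93% of the promoters of 27025 genes. Those 27025 genes were not selected for expression in oocytes, so an excess is not shown to be particular to the members. The motif bound by NRF1 (GCGC, then any base, then TGCGC) occurred, on either strand, in 10 (29.4%) and in 5.19% of all promoters. AAGATGGC, a YY1 motif, occurred in 2 members (5.88%; 3.19% of all) and TATAAA, the TATA box, in 3 (8.82%; 15.7% of all). CCGGAAG and AAGATGGC can overlap by the letters AAG, and the other motifs were searched alike. Capitals mark CCGGAAG or its reverse complement in Cox8a, whose level was not lower after maturation, and the NRF1 letters or their reverse complement in Atp5o and Sdha, the first the most reduced member and the second not reduced.
Cox8a promoter, chr19:7217567-7217866, minus strand: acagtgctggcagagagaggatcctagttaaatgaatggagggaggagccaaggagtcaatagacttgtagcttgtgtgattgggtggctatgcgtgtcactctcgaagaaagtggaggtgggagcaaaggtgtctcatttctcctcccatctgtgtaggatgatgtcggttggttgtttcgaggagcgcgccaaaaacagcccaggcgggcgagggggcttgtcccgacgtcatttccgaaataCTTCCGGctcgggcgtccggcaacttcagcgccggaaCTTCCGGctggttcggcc
Atp5o promoter, chr16:91931581-91931880, minus strand: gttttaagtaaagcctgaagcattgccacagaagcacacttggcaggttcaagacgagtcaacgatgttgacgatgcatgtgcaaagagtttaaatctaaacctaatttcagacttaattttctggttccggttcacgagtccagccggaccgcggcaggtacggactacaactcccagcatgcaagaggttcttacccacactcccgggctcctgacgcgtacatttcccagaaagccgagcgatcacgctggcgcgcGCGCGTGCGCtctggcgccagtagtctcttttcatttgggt
Sdha promoter, chr13:74350191-74350490, minus strand: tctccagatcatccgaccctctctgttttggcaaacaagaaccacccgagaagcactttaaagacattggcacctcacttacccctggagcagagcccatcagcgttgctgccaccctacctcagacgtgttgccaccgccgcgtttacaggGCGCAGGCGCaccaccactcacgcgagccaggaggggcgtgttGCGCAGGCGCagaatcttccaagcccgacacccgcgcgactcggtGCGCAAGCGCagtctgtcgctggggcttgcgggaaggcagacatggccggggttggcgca
The Sdha promoter holds the NRF1 letters 3 times and that of Atp5o once. These are 2 of the 10 members with the letters, shown with their maturation differences known, and a relation of the letters to those differences was not tested. A match in these letters is a description and does not show that a factor binds.

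The last 100 bases of the annotated transcripts were searched for TTTTAT or TTTTAAT, letters of the cytoplasmic polyadenylation element that lengthens poly(A) tails during maturation. Only bases after the stop codon were read, so Sdhb, Atp5h, Atp5j, Atp5k and Atp5o had shorter stretches, of 59 to 91 bases. For each gene 1 annotated transcript was read, and its end need not be that of the mRNA measured. The Atp5g1 transcript read has 4252 bases after its stop codon, where the mean deposited length of the gene was 673. The letters were found in 3 of the 45 members that passed the filter on low counts (6.67%) and in 19.5% of 10763 protein-coding genes that passed it. For each of these members 1 site is shown as 30 bases in GRCm38 coordinates, with the element in capitals, and Cox6a2 holds 2 in that window.
Cox5a, chr9:57532330-57532359, plus strand: tgcctggaaatgTTTTATttgaacaaattt
Cox6a2, chr7:128205469-128205498, minus strand: cctgcattttcaTTTTATtttttaaaaatt
Atp5s, chr12:69744608-69744637, plus strand: tacaaaaatgaaTTTTATatctagaaaaca
Averaged over both ages, the differences between IVM-MII and GV oocytes ranged from -3.06 to -0.41 on the log2(CPM + 1) scale for these 3 members. Over all genes the median was 0.0 with the letters and -0.66 without them. Over the members the median was -2.4 with the letters and -2.92 without them (42 members, -6.82 to 1.36). Of the 3 with the letters, Cox6a2 and Atp5s were called lower at both ages and Cox5a at neither. Atp5s passed the filter through the GV oocytes alone. Cox8a and Uqcrc2, which lack the letters, were also called at neither age, and a relation to the letters was not tested.

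The libraries held 1914072 to 9193559 counts. Oocyte markers (12 genes such as Zp3 and Gdf9) summed to between 8664 and 69117 CPM, the count scaled to the size of its library, with at most 1 of them at 0 in any oocyte. Of 15 mesenchymal stromal markers, Thy1, Nt5e, Eng and Cxcl12 were at 0 in every oocyte, and the list summed to 9.69 to 49.8 CPM. At 12m 13 markers were at 0 in all 3 IVM-MII oocytes and 10 in all 3 MSC-IVM-MII oocytes. Between these groups Col3a1, Acta2, Vim and Dcn had counts only with co-culture, and Col1a2 only without it. The sums were 13.3 to 22.0 CPM without and 13.4 to 22.7 CPM with co-culture. At 6wk Vcam1 had counts in MSC-IVM-MII and not in IVM-MII oocytes. In GV 12m oocytes 5 markers were at 0 in all 3. Blood and immune markers (10 genes) summed to at most 20.8 CPM. Cumulus and granulosa markers (20 genes) summed to 2478 CPM in GV 12m oocyte 3 and to 0.0 to 243 CPM in the other 17 oocytes. The oocytes of a group did not stand alike for the members. GV 6wk oocyte 2 was the lowest of its group for 41 of 45 members and GV 12m oocyte 3 for 39 of 45, against 33.1% and 44.2% of all genes. MSC-IVM-MII 12m oocyte 2 was lowest for 34 of 44 members with any count in its group and IVM-MII 6wk oocyte 1 for 29 of 44, against 29.2% and 32.6% of all genes. The counts of the maturation comparisons are given without these libraries as well.

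Before maturation the mRNAs of all 4 complexes were abundant. Levels between genes are compared in TPM, which is scaled by transcript length as well as by library. Over the 6 GV oocytes the ATP synthase epsilon subunit gene Atp5e, of the catalytic head's central stalk, had the highest mean of any member, 2955 TPM. Cox4i1, the common form of the largest nuclear subunit of cytochrome c oxidase, followed within complex IV at 1472 TPM. Uqcrq, a small subunit near cytochrome b, led complex III at 1423 TPM. Sdhd, a membrane anchor of succinate dehydrogenase, led complex II at 310 TPM. The catalytic subunits were not the most abundant. Sdha, the flavoprotein that oxidises succinate, averaged 25.8 TPM, and Atp5a1 and Atp5b, the alpha and beta subunits of the catalytic head, averaged 98.1 and 463 TPM. Summed over its subunits, complex II stood at 714 to 812 TPM in the 6 GV oocytes, complex III at 3188 to 6525, complex IV at 6220 to 12477 and complex V at 7887 to 15872.

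Within complex IV 4 members did not pass the filter on low counts (at least 2.34 CPM, the equivalent of 10 counts, in 3 oocytes), so 45 were compared. Cox8b, the heart and muscle form of its subunit, and Cox6c2, annotated as a processed pseudogene, had no count in any of the 18 oocytes. Cox7a1, a muscle form, had 14 counts in all, every one in a GV oocyte, and Cox7b2, a testis form, had 2. Another 3 members, Cox4i2, Cox8c and Atp5s, reached 2.34 CPM in fewer than 3 of the 12 metaphase II oocytes. Cox4i2 and Atp5s passed through the GV oocytes alone, so that they had to be lower after maturation. By the library totals that the filter uses, Cox8c passed through GV oocytes together with MSC-IVM-MII 12m oocyte 1. Cox8c was called in none of the 4 maturation comparisons. Cox4i2 and Atp5s are counted among the members called lower in all 4 maturation comparisons below, and their calls carry no weight.

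**Figure D1:**
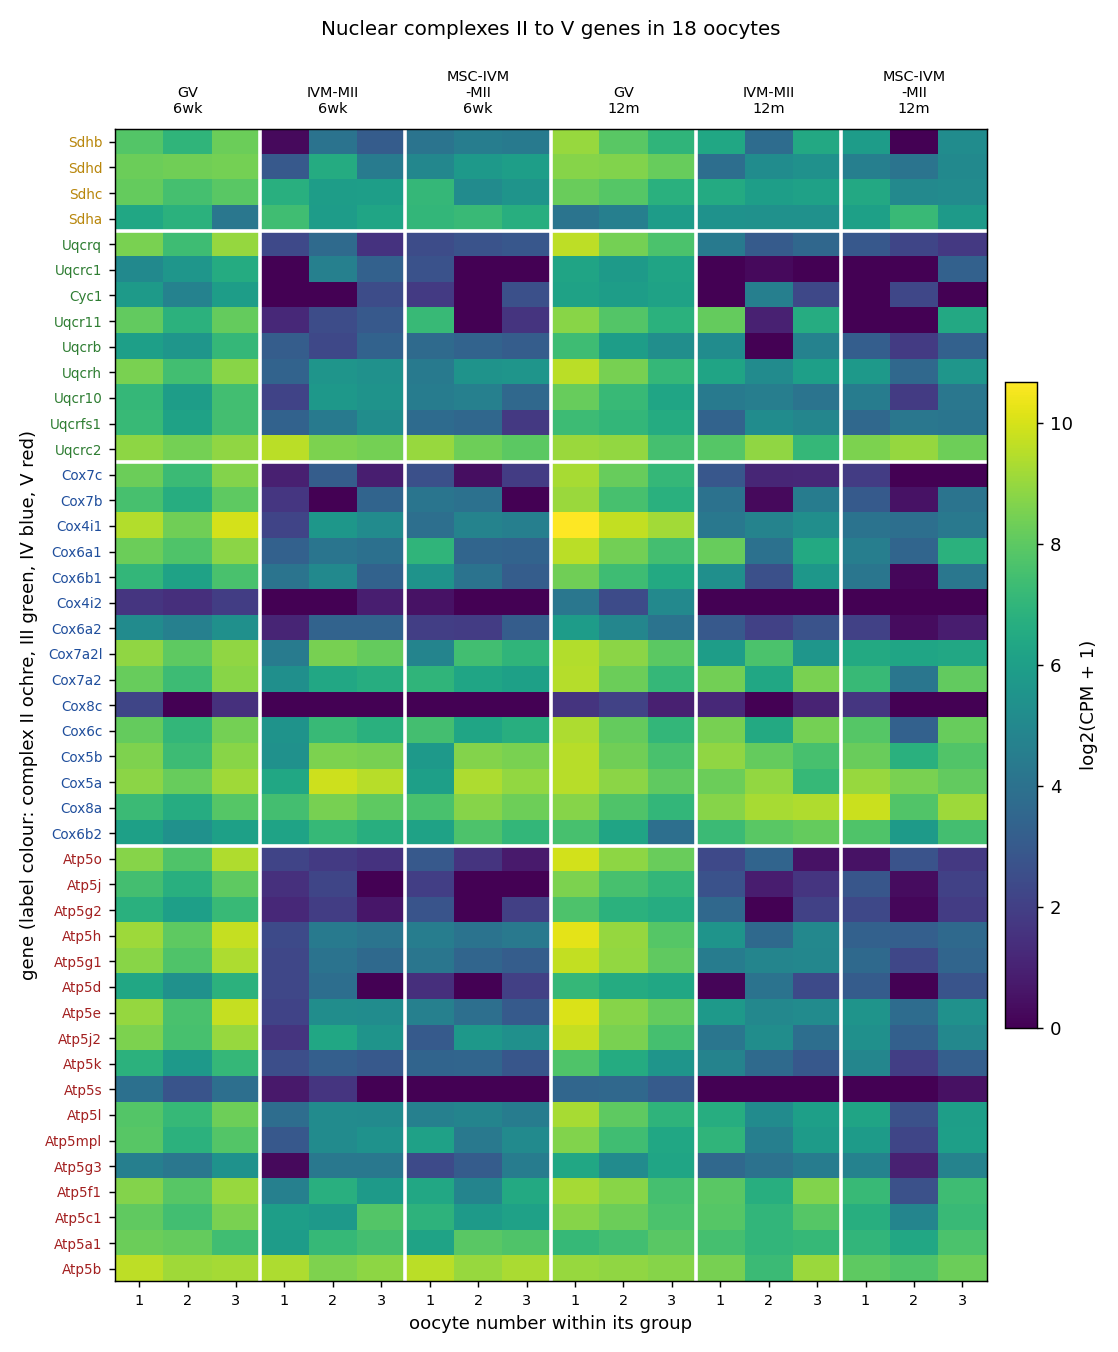
Level of each of the 45 members (rows, by complex) in each of the 18 oocytes (columns, by group), as log2(CPM + 1) by colour. Most rows are bright in the 6 GV oocytes and dark in the 12 metaphase II oocytes, while rows such as Uqcrc2, Cox5a, Cox5b, Cox8a and Atp5b stay bright throughout.

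In IVM-MII oocytes most members stood far below GV oocytes at both ages. Differences are between group means of log2(CPM + 1). A member was called lower or higher where the difference was at least 1 and every oocyte of a group lay beyond every oocyte of the other. In 6wk oocytes 32 of 45 members were called lower and none higher, where 28.3% of the 12037 genes compared were called lower and 8.34% higher. The median difference was -3.01 over the members and -0.52 over all genes. In 12m oocytes 29 were called lower and none higher, against 25.5% and 10% of all genes, with medians of -2.55 and -0.52. These 2 comparisons share no library. Of the members, 27 were called lower at both ages, 27 of the 32 at 6wk and 27 of the 29 at 12m, Cox4i2 and Atp5s among them. The share of all genes called lower at both ages was not counted, so this overlap is not shown to be particular to the members. Across the 45 members the differences at the 2 ages gave a Pearson correlation of 0.86 and a Spearman correlation of 0.84, and across all 12037 genes 0.80 and 0.77. Sample titles begin with 5 prefixes (O01, O04, O05, Y01 and Y03) that the labels do not explain; within the prefixes that both groups hold, the members' medians were -3.44 at 6wk and -1.94 at 12m. Cumulus and granulosa markers summed to at least 72.8 CPM in GV oocytes and to at most 80.3 CPM in metaphase II oocytes. At 6wk 38 members were called lower and none higher without GV 6wk oocyte 2, against 30.9% and 13.4% of all genes. Without IVM-MII 6wk oocyte 1 there were 32 lower and 2 higher (Cox6b2 and Cox8a), against 35.3% and 10.9%. Without GV 12m oocyte 3, which held most of the granulosa marker RNA, 34 members were called lower and 1 higher at 12m, against 31.2% and 13.1% of all genes. Values are shares of the RNA captured from each oocyte, and amounts per oocyte were not measured.

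**Figure D2:**
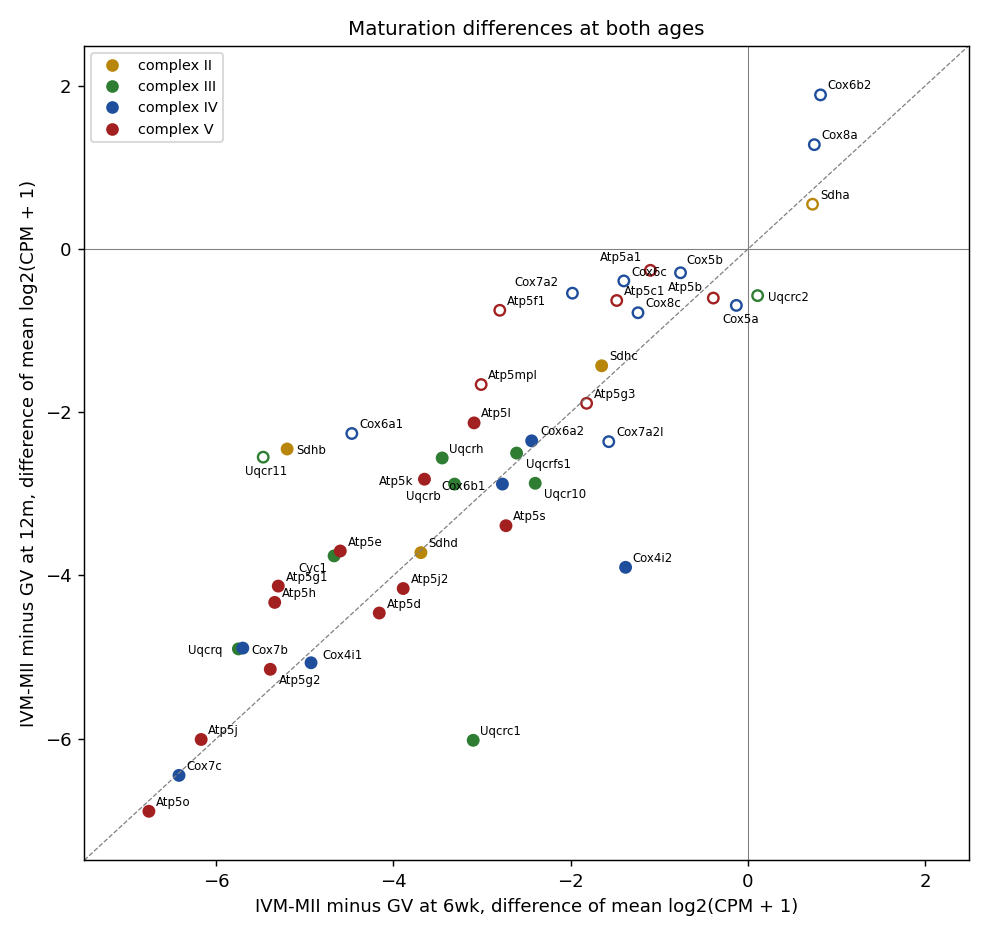
Difference between IVM-MII and GV oocytes on the log2(CPM + 1) scale at 6wk (horizontal) and at 12m (vertical), 1 point for each of the 45 members, coloured by complex. Filled points are the 27 members called lower at both ages, the dashed line marks equal differences, and Atp5o and Cox7c lie lowest at both ages while Cox6b2, Cox8a and Sdha lie above 0.

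The complexes differed in how much of each was lower. Complex III had 8 of 9 members called lower at 6wk and 7 of 9 at 12m, with medians of -3.31 and -2.87. Complex V had 13 and 12 of 17, with medians of -3.65 and -3.39. Complex II had 3 of 4 at both ages, with medians of -2.67 and -1.94. Complex IV had 8 and 7 of its 15 members compared (19 in all), with medians of -1.57 and -2.26. Its 12m median moved to -1.15 without IVM-MII 12m oocyte 2, and to -0.73 when members with any count were included. The members called at neither age numbered 6 in complex IV (Cox5a, Cox5b, Cox6b2, Cox6c, Cox8a and Cox8c), 3 in complex V (Atp5a1, Atp5b and Atp5c1), 1 in complex III (Uqcrc2) and 1 in complex II (Sdha). The counts called lower include Cox4i2 in complex IV and Atp5s in complex V, which passed the filter through GV oocytes alone. No test of the difference between complexes was made.

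**Figure D3:**
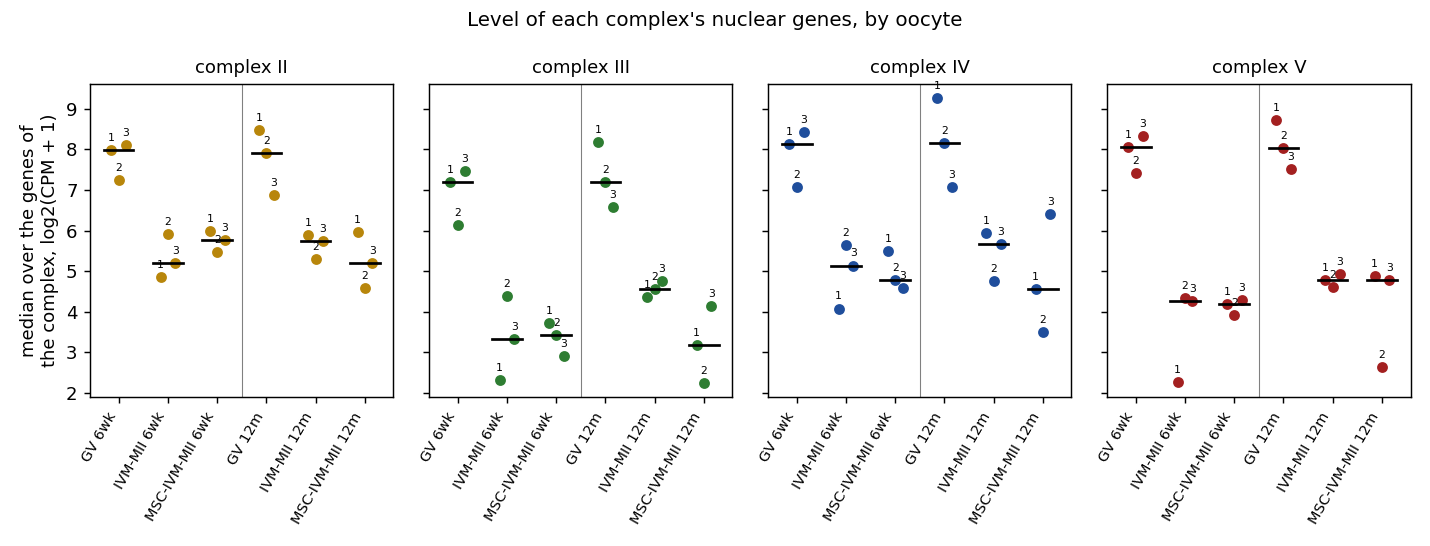
Median log2(CPM + 1) over the members of each complex (panels) in each oocyte (points), by group, with bars at the group's median. In all 4 panels the GV oocytes lie above every metaphase II oocyte.

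In complex II the iron-sulfur subunit gene Sdhb and the membrane anchor genes Sdhc and Sdhd were lower after maturation, while the flavoprotein gene Sdha was not. Sdhb (chr4:140961203-140979193, plus strand) was at 226, 123 and 309 CPM in the GV 6wk oocytes and at 0.22, 15.5 and 7.69 CPM in the IVM-MII 6wk oocytes. In 12m mice it was at 515, 246 and 125 CPM in GV and at 80.9, 12.8 and 86.4 CPM in IVM-MII oocytes. The groups did not overlap at either age, and the difference was -5.20 at 6wk and -2.45 at 12m, or -1.58 at 12m without IVM-MII oocyte 2. At 6wk the means were 219 ± 92.7 and 7.80 ± 7.64 CPM (SD, n = 3). Summed over 3 oocytes, Sdhb had 2223 counts in GV 6wk (exact 95% Poisson interval 2131.5 to 2317.4, for counting error only) and 78 in IVM-MII 6wk (61.7 to 97.3). Sdhd was at 313, 323 and 346 CPM in GV 6wk and at 6.97, 94.2 and 20.5 CPM in IVM-MII 6wk oocytes, with differences of -3.69 and -3.72 at the 2 ages. Sdhc was less reduced, with differences of -1.65 and -1.43.

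Sdha showed the opposite order without separating the groups. It was at 80.4, 111 and 18 CPM in GV 6wk oocytes and at 167, 58.6 and 77.4 CPM in IVM-MII 6wk oocytes. At 12m it was at 16.0, 23.6 and 58.3 CPM in GV oocytes and within 41.1 to 42.8 CPM in all 3 IVM-MII oocytes. The groups overlapped at both ages, and the differences were 0.73 and 0.55. Complex II mRNA in total stood at 714 to 812 TPM in the 6 GV oocytes and at 89.3 to 335 TPM in the 12 metaphase II oocytes.

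In complex III the small subunit gene Uqcrq was the most reduced on average over both ages. It was at 363, 164 and 500 CPM in GV 6wk oocytes and at 4.05, 11.8 and 1.99 CPM in IVM-MII 6wk oocytes. In 12m oocytes it went from 787, 343 and 200 CPM to 19.7, 7.39 and 10.8 CPM. Every IVM-MII oocyte was far below the lowest GV oocyte, with differences of -5.75 (57.6-fold by mean CPM) and -4.90 (35.1-fold). At 6wk the means were 342 ± 168 and 5.94 ± 5.16 CPM (SD, n = 3). Cyc1, the cytochrome of the complex that hands electrons to cytochrome c, was at 56.0, 25.5 and 59.8 CPM in GV 6wk oocytes and at 0.0, 0.0 and 4.56 CPM in IVM-MII 6wk oocytes. Uqcrfs1, the Rieske iron-sulfur protein, was at 145, 69.4 and 178 CPM in GV 6wk oocytes and at 9.21, 20.1 and 36.2 CPM after maturation. Both of these electron-carrying subunits encoded in the nucleus were called lower at both ages. The hinge protein gene Uqcrh and the small subunit genes Uqcrb and Uqcr10 were also called lower at both ages, with differences from -3.45 to -2.40.

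The pair of core proteins of complex III behaved differently. Uqcrc1 was at 32.4, 47.3 and 94.8 CPM in GV 6wk oocytes and at 0.0, 24.2 and 8.83 CPM in IVM-MII 6wk oocytes. At 12m it had 1 count in all over the 3 IVM-MII oocytes, against 55.9 to 74.8 CPM in each GV oocyte. Uqcrc2 was at 468, 344 and 479 CPM in GV 6wk oocytes and at 753, 378 and 344 CPM in IVM-MII 6wk oocytes, which overlap. Its differences were 0.11 and -0.57, and in the 12 metaphase II oocytes it stood between 137 and 753 CPM. Uqcr11, a small subunit, varied widely between oocytes of a group: it was at 1.35, 4.65 and 6.83 CPM in IVM-MII 6wk oocytes but at 281, 1.00 and 96.8 CPM in IVM-MII 12m oocytes. It was called lower at 6wk (-5.47) and not at 12m (-2.55).

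In complex IV some subunit genes were strongly reduced and others overlapped with GV oocytes. Cox7c, a small membrane subunit, was at 308, 152 and 406.5 CPM in GV 6wk oocytes and at 0.90, 7.75 and 0.85 CPM in IVM-MII 6wk oocytes. In 12m oocytes it was at 617, 293 and 137 CPM before and at 6.52, 1.20 and 1.27 CPM after maturation. The differences were -6.42 and -6.45, the lowest of complex IV at both ages, and the mean CPM was 91.2-fold and 117-fold lower, from 289 ± 128 to 3.17 ± 3.97 CPM at 6wk (SD, n = 3). Over the 3 oocytes Cox7c had 2926 counts in GV 6wk (2820.9 to 3034.0) and 32 in IVM-MII 6wk (21.9 to 45.2). Cox4i1 was at 691, 330 and 997 CPM in GV 6wk and at 3.60, 49.0 and 34.2 CPM in IVM-MII 6wk oocytes. It was at 1627, 824 and 579 CPM in GV 12m and at 18.3, 26.2 and 37.9 CPM in IVM-MII 12m oocytes. Cox7b, another small membrane subunit, had differences of -5.70 and -4.89.

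Cox5a and Cox5b, the peripheral subunits that cover the matrix side of the enzyme, were called at neither age. Cox5a was at 445, 290 and 562 CPM in GV 6wk oocytes and at 80.5, 914 and 745 CPM in IVM-MII 6wk oocytes, so 1 matured oocyte was below all GV oocytes and the others above. Cox5b was at 389, 160 and 438 CPM in GV 6wk and at 41.1, 381 and 353 CPM in IVM-MII 6wk oocytes. The low oocyte in both was IVM-MII 6wk oocyte 1, and MSC-IVM-MII 6wk oocyte 1, which has the same title prefix, was also low: Cox5a was at 63.9, 650 and 492 CPM and Cox5b at 54.2, 409 and 365 CPM in that group. The differences were -0.13 and -0.69 for Cox5a and -0.76 and -0.29 for Cox5b. Cox8a, the common form of the smallest subunit, stood higher after maturation without separating the groups: 152, 97.3 and 231 CPM in GV 6wk and 177, 356 and 259 CPM in IVM-MII 6wk oocytes, and 426, 209 and 133 CPM in GV 12m against 422, 613 and 670 CPM in IVM-MII 12m. Its differences were 0.75 and 1.28. It was called higher at 6wk without IVM-MII oocyte 1 or GV oocyte 3, and at 12m without IVM-MII oocyte 1 or GV oocyte 1.

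Subunit Cox6b, which lies on the outer face where a pair of enzymes meet, is made from Cox6b1 in most tissues and from Cox6b2 in testis. Both were expressed in these oocytes, and they moved apart. Cox6b1 was at 131, 69.6 and 195 CPM in GV 6wk and at 16.0, 32.9 and 9.11 CPM in IVM-MII 6wk oocytes, a difference of -2.77, and the difference at 12m was -2.88 (-1.91 without IVM-MII oocyte 2). Cox6b2 was at 66.5, 41.5 and 65.8 CPM in GV 6wk and at 72.4, 139 and 101.4 CPM in IVM-MII 6wk oocytes, every value above the GV range but with a difference of 0.82, under the size needed for a call. At 12m Cox6b2 was at 189, 73.5 and 13.9 CPM in GV and at 153, 246 and 279 CPM in IVM-MII oocytes. That difference was 1.89, and 0.89 without GV 12m oocyte 3, the oocyte with the high granulosa markers. Cox6b2 was called higher in MSC-IVM-MII 6wk against GV 6wk oocytes (1.12). Of the summed TPM of the 2 genes, Cox6b2 made up 14.3% to 39.2% in the 6 GV oocytes and 62.2% to 99.8% in the 12 metaphase II oocytes, so the shares did not overlap. A share can change through either gene, and Cox6b1 was the one called lower at both ages.

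For Cox4, Cox6a and Cox8 the same isoform had the higher TPM in every oocyte. Cox4i1 exceeded Cox4i2, a form known from lung and from low oxygen, in every oocyte: Cox4i2 made up at most 5.36% of their TPM. Cox4i2 was at 2.14, 1.70 and 2.83 CPM in GV 6wk and at 17.8, 4.39 and 31.6 CPM in GV 12m oocytes, and had no count in the 6 metaphase II oocytes of 12m mice. Against a floor of 3 counts per library it was at least 33.7-fold lower in IVM-MII 12m than in GV 12m. With a pseudocount of 5 its difference at 6wk was -0.45 in place of -1.38. Cox6a2, the heart and muscle form, was called lower at both ages (-2.44 and -2.35), and Cox6a1, the common form, at 6wk (-4.47) but not at 12m (-2.26), where IVM-MII oocytes ran from 15 to 291 CPM. Cox6a2 made up 5.29% to 7.99% of their TPM in GV oocytes and 0.499% to 37.8% in metaphase II oocytes. Cox8c, a testis form, did not exceed 3.75 CPM in any oocyte, against at least 97.3 CPM for Cox8a. Of the Cox7a group, Cox7a2 was called lower at 6wk (-1.98) and not at 12m (-0.54). The order of TPM within this group varied, with a Cox7a2l share of 36.7% to 50.9% in GV and of 7.32% to 72.6% in metaphase II oocytes. Cox7a2l was called lower at 12m (-2.36) and not at 6wk (-1.57, and -0.28 without IVM-MII oocyte 1).

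**Figure D4:**
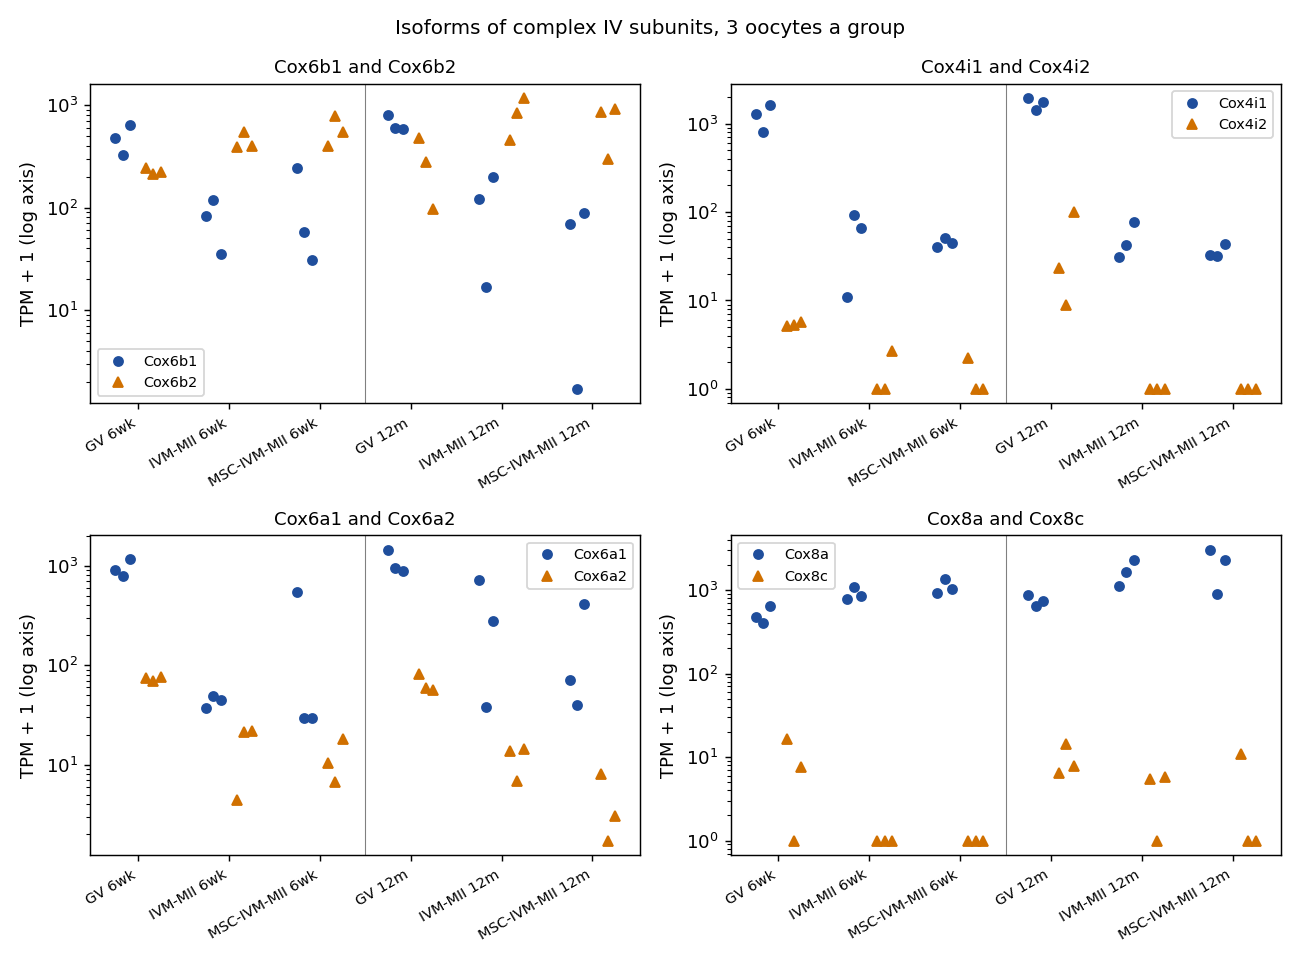
TPM + 1 on a log axis for 4 pairs of complex IV isoforms in each oocyte, by group. Cox6b2 lies above Cox6b1 in all 12 metaphase II oocytes and below it in all 6 GV oocytes, while Cox4i1, Cox6a1 and Cox8a lie above Cox4i2, Cox6a2 and Cox8c in every oocyte.

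In complex V the most reduced member of all was Atp5o (chr16:91925214-91931687, minus strand), which encodes the subunit that ties the stationary outer stalk to the catalytic head. It was at 428, 212 and 674 CPM in GV 6wk oocytes and at 3.60, 2.48 and 1.99 CPM in IVM-MII 6wk oocytes. In 12m oocytes it was at 970, 460 and 297 CPM before and at 4.10, 9.99 and 0.42 CPM after maturation. The differences were -6.76 and -6.89, and the mean CPM was 163-fold and 119-fold lower, from 438 ± 232 to 2.69 ± 0.822 CPM at 6wk and from 576 ± 351 to 4.84 ± 4.83 CPM at 12m (SD, n = 3). Over the 3 oocytes Atp5o had 4373 counts in GV 6wk (4244.3 to 4504.6) and 31 in IVM-MII 6wk (21.1 to 44.0). Its partners in the outer stalk were not reduced alike. Atp5j was at 176, 105.3 and 260 CPM in GV 6wk and at 1.80, 3.72 and 0.0 CPM in IVM-MII 6wk oocytes, and Atp5h had differences of -5.34 and -4.33. Atp5f1 was called lower at 6wk (-2.80) and not at 12m, where IVM-MII oocytes stood at 245, 103.1 and 394 CPM and GV oocytes at 605, 436 and 183 CPM.

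In the catalytic head the alpha, beta and gamma subunit genes were called at neither age, and the delta and epsilon subunit genes at both. Atp5b, the beta subunit that makes ATP, was at 786, 564 and 601 CPM in GV 6wk and at 661, 389 and 463 CPM in IVM-MII 6wk oocytes, which overlap, and its differences were -0.39 and -0.60. Atp5a1, the alpha subunit, was at 311, 280 and 166 CPM and at 58.4, 139 and 176 CPM in the same groups, with differences of -1.10 and -0.26. Atp5c1, the gamma subunit that turns inside the ring, had differences of -1.48 and -0.63 with overlapping groups. Atp5d and Atp5e, the small delta and epsilon subunits, sit with gamma in the central stalk and were called lower at both ages. Atp5e was at 503.8, 194 and 856 CPM in GV 6wk and at 3.37, 36.3 and 35 CPM in IVM-MII 6wk oocytes, and its differences were -4.60 and -3.70. The differences of Atp5d were -4.16 and -4.46.

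The membrane ring of complex V is built from subunit c, one mature protein encoded by Atp5g1, Atp5g2 and Atp5g3. Atp5g1 was the main source in GV oocytes, with 67.0% to 82.0% of the TPM of the 3 genes. It was at 432, 213 and 652 CPM in GV 6wk oocytes and at 3.82, 15.5 and 11.4 CPM in IVM-MII 6wk oocytes, with differences of -5.30 and -4.13. Atp5g2 was at 109, 63.6 and 144 CPM in GV 6wk and at 1.35, 2.79 and 0.57 CPM in IVM-MII 6wk oocytes. Atp5g3 was the lowest of the 3 in GV oocytes and less reduced: it was at 23.3, 17.7 and 42.5 CPM in GV 6wk and at 0.22, 18.3 and 18.2 CPM in IVM-MII 6wk oocytes. Its difference at 6wk was -1.82, and -0.49 without IVM-MII oocyte 1, with no call, and at 12m it was called lower at -1.89. The share of Atp5g3 was 3.53% to 15% in GV oocytes and 3.33% to 69.7% in metaphase II oocytes, so the ranges overlapped, and the order of Atp5g1 and Atp5g3 varied between metaphase II oocytes. The split between these genes rests on how reads were assigned: 77.8% of the Atp5g1 and 87.5% of the Atp5g2 expected counts above 0 were not whole numbers. Of the other membrane subunits, Atp5j2, Atp5k and Atp5l were called lower at both ages and Atp5mpl at 6wk. Atp5s, a factor associated with the synthase, was at 14.5, 5.82 and 13.8 CPM in GV 6wk and had no count in the IVM-MII 12m oocytes.

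Mitochondrially encoded partners stood higher after maturation where they were called, so nuclear and mitochondrial mRNA were compared within each complex. Of 13 mitochondrially encoded mRNAs none was called lower in IVM-MII oocytes, 3 were called higher at 6wk and 10 at 12m, with medians of 1.79 and 1.46. Their share of the library was 0.917% to 14.9% over the 18 oocytes, and with these genes left out of the counts and totals the median over the nuclear members was -3.01 at 6wk and -2.56 at 12m. The ratio of summed TPM of the nuclear members to that of the mitochondrial ones was 0.369 to 1.32 in GV and 0.00925 to 0.12 in metaphase II oocytes for complex III. For complex IV it was 0.748 to 1.77 and 0.0837 to 0.546. For complex V it was 0.4 to 1.19 and 0.00479 to 0.0722. In each of the 3 complexes the 6 GV oocytes lay above all 12 metaphase II oocytes. Complex IV kept the highest ratio after maturation, where its summed nuclear TPM was 2087 to 7367, against 6220 to 12477 in GV oocytes.

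**Figure D5:**
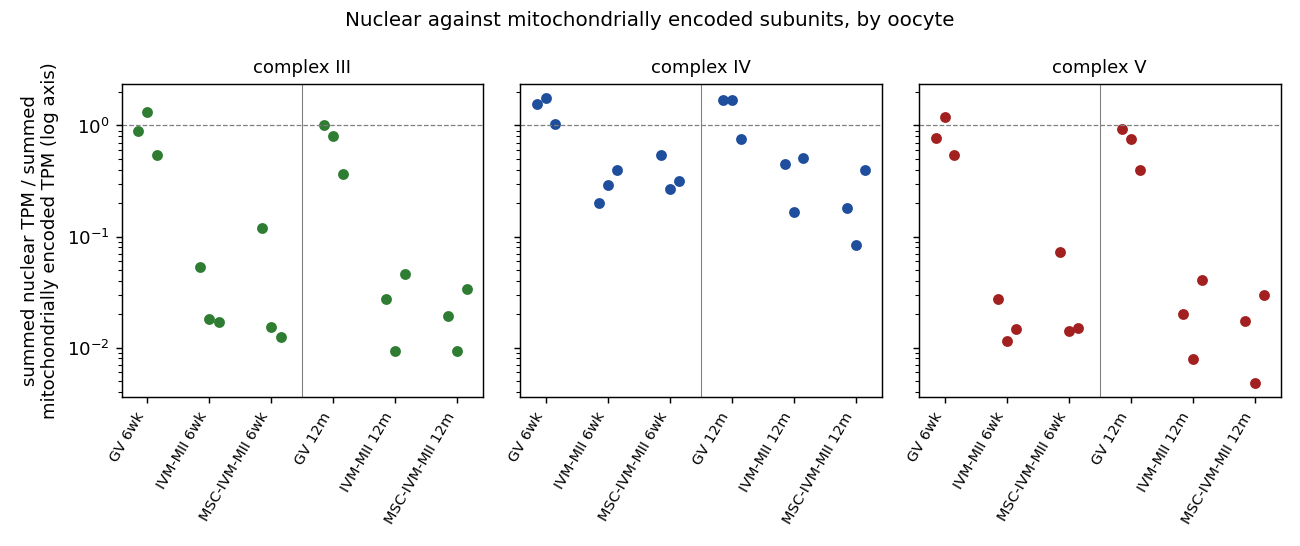
Ratio of summed TPM of nuclear to mitochondrially encoded subunits, on a log axis, for complexes III, IV and V in each oocyte, by group, with a dashed line at 1. GV oocytes lie near the line, and all metaphase II oocytes lie below every GV oocyte of the same complex.

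Other genes of oxidative phosphorylation were counted from lists. Over all genes 28.3% were called lower at 6wk and 25.5% at 12m, 8.34% and 10% were called higher, and the median was -0.52 at each age. Of 36 nuclear subunits of complex I, the NADH dehydrogenase, 31 were called lower at 6wk and 26 at 12m, with medians of -4.24 and -3.08, and Ndufa10 was called higher at both ages. Of 36 assembly factors of complexes II to V, of which 34 passed the filter, 21 were called lower at each age (medians -2.82 and -1.82). Cox10, which makes the haem of complex IV, was called higher at both ages and Ttc19, a complex III factor, at 6wk. Of 7 carriers of electrons and adenine nucleotides, 4 were called lower at each age, among them cytochrome c (Cycs) and the ATP synthase inhibitor Atpif1. Of 13 citrate cycle genes 7 were called lower and 1, Suclg2, higher at each age. Of 11 regulators of these genes 7 passed the filter, and 2 of the 7 were called lower at each age, near the share over all genes. Their medians were -0.79 and -0.30, so the regulators as a list did not stand out. Tfam, which packages mitochondrial DNA, was called lower at both ages, Nrf1 at 6wk and Yy1 at 12m, while Tfb2m was called higher at both ages and Ppargc1b at 12m.

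The MSC-IVM-MII oocytes are set against the same GV oocytes, so these values are not independent of those above. In 6wk oocytes 33 members were called lower and 1 higher, against 27.3% and 12.3% of all genes, with a median of -2.82 (-0.29 over all genes). In 12m oocytes 34 were called lower and none higher, against 28.0% and 9.99%, with a median of -3.40 (-0.60 over all genes). Without GV 6wk oocyte 2 there were 37 lower and 1 higher at 6wk, against 30.5% and 19.7% of all genes. At 12m there were 36 lower and 1 higher without GV 12m oocyte 3, against 33.7% and 13.1%. Leaving out MSC-IVM-MII 12m oocyte 2 gave 34 lower and 1 higher, against 32.6% and 11.6%. Complex III had 7 of 9 called lower at 6wk and 8 of 9 at 12m, complex V 14 and 15 of 17, complex II 3 of 4 at both ages, and complex IV 9 and 8 of 15. Atp5o was at 6.95, 2.0 and 0.69 CPM in MSC-IVM-MII 6wk and at 0.45, 5.68 and 2.37 CPM in MSC-IVM-MII 12m oocytes, far below all GV oocytes. Sdha, Uqcrc2, Cox5a, Cox5b, Cox6c, Cox8a, Cox8c, Atp5a1 and Atp5b were not called in either. MSC-IVM-MII 12m oocyte 2 had the lowest median log2(CPM + 1) over the members, 2.65 against 4.62 and 4.99 in the others. Without it the difference of Sdhb from GV 12m was -2.43 in place of -4.28, that of Atp5g3 -1.18 in place of -2.43 and that of Atp5l -1.96 in place of -3.12. For Cox7a2l in 6wk oocytes the difference was -2.18, and -1.37 without MSC-IVM-MII oocyte 1.

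Few members were called between oocytes matured with and without co-culture. Between MSC-IVM-MII and IVM-MII oocytes of 6wk mice none was called lower and 1 higher, against 0.881% and 3.05% of all genes, and the median difference was 0.19 (0.20 over all genes; 0.40 over the members within title prefixes). The member was Sdhb, at 16.4, 22.0 and 20.3 CPM with co-culture and at 0.22, 15.5 and 7.69 CPM without, a difference of 1.87. Without IVM-MII 6wk oocyte 1 that difference was 0.77 and below the size for a call, and 7 other members were then called lower with co-culture and none higher, against 5.03% and 13.6% of all genes. Those were Atp5e, Cox5a, Cox6a2, Cox7a2l, Uqcr10, Uqcrc1 and Uqcrfs1. Leaving out both Y01 oocytes, the title prefix of that oocyte and of MSC-IVM-MII 6wk oocyte 1, gave a median of -0.47, with 6 called lower and none higher, against 5.71% and 14.1% of all genes, and 0.89 for Sdhb. The calls at 6wk depended on these oocytes.

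In 12m mice 3 members were called lower with co-culture and none higher, against 2.89% and 1.99% of all genes, and the median difference was -0.55 (-0.09 over all genes; -0.52 over the members within title prefixes). Atp5g1 was at 11.6, 3.88 and 10.3 CPM with co-culture and at 21.5, 28.0 and 29.6 CPM without, a difference of -1.62. Uqcrq was at 6.68, 3.74 and 2.37 CPM against 19.7, 7.39 and 10.8 CPM (-1.35), and Cox6a2 at 3.12, 0.28 and 0.79 CPM against 6.88, 3.20 and 5.72 CPM (-1.52). These are low levels, and with a pseudocount of 5 the values were -0.89 for Uqcrq and -0.69 for Cox6a2. On the TPM scale Uqcrq differed by -0.49. Without MSC-IVM-MII 12m oocyte 2 the median over the members was 0.02, and 3 were called lower and none higher, against 5.52% and 3.87% of all genes. Without IVM-MII 12m oocyte 2 there were 13 called lower and 1 higher, against 8.70% and 4.11% of all genes.

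Age was compared within each kind of oocyte. No title prefix occurs at both ages, so age and prefix cannot be told apart. In GV oocytes no member was called lower at 12m and 1 was called higher, against 1.84% and 2.47% of all genes, with a median of 0.21 (0.12 over all genes). The member was Cox4i2, with the values given above and a difference of 2.22. Its highest value, 31.6 CPM, was in GV 12m oocyte 3, the oocyte with the granulosa markers, whose part in the result was not tested. It was called higher without that oocyte as well. The median ran from -0.25 without GV 12m oocyte 1 to 0.64 without GV 12m oocyte 3.

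In IVM-MII oocytes 1 member was called lower and 4 higher at 12m, against 1.74% and 5.08% of all genes, with a median of 0.62 (0.16 over all genes). Sdha was lower (-1.11), at 42.8, 41.6 and 41.1 CPM against 167, 58.6 and 77.4 CPM at 6wk. Cox8a (1.13), Cox6b2 (1.11), Atp5g1 (1.45) and Atp5l (1.27) were higher. Atp5l, a membrane subunit, was at 99.0, 34.8 and 64.8 CPM at 12m and at 13.0, 34.4 and 33.0 CPM at 6wk, so the closest oocytes nearly met. Without IVM-MII 6wk oocyte 1 none of these 5 was called. The differences were then -0.67 for Sdha, 0.92 for Atp5g1 and 0.83 for Atp5l, and 5 other members were called lower and none higher, against 4.69% and 11.7% of all genes. Without IVM-MII 12m oocyte 2 there were 19 called higher and 2 lower, against 10.9% and 3.37% of all genes.

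In MSC-IVM-MII oocytes Atp5b alone was called lower at 12m (-1.29) and none higher, against 3.81% and 1.89% of all genes, with a median of -0.16 (-0.12 over all genes). It was at 261, 213 and 304.5 CPM at 12m and at 757, 515 and 640 CPM at 6wk, so the groups did not overlap. Atp5b stayed called lower whichever oocyte was left out. Without MSC-IVM-MII 12m oocyte 2 there were 10 members called higher and 2 lower, against 5.87% and 9.43% of all genes, and the median was 0.47.

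Several properties of the members bear on their values. The deposited expected counts were not whole for every value above 0 of Atp5h, for 62.5% of Cox7c and for 50% of Sdhc and Atp5l. In the annotation 13 members share exon bases with another gene, 12 of them on the opposite strand, among them Atp5j with Gabpa, Cox4i1 with Emc8 and Uqcrc2 with Pdzd9, and reads of such a pair cannot be told apart where strand was not kept. Atp5o, the most reduced member, shares 346 and 356 bases with antisense genes. It also shares 243 bases of its own strand with another gene record named Atp5o, which the naming rule matches but the deposited tables lack. The differences were little related to transcript length across the 45 members, with Spearman correlations of 0.19 at 6wk and 0.07 at 12m (0.27 and 0.19 across all genes). A canonical poly(A) signal stood in the bases searched at the transcript's end in 41 of the 45 members (91.1%) and in 81.1% of 10763 genes.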

How the data were processed

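Gene tables of 18 single oocytes were used. The authors deposited expected counts and TPM for each gene and oocyte, per the file headers. The submitters' processing notes name TopHat2 2.1.1 and Cufflinks, Trim Galore 0.4.5 with FastQC 0.11.8, and the builds GRCm38.p5 and mm10, and the tool that made the expected counts is not given in the sources used here. Per the labels' protocols, nuclei were pelleted and the library was made from the fluid above them. Symbols came from GENCODE M21 (46488 of 47069 identifiers).

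Expected counts were rounded, filtered with filterByExpr by group (12037 genes) and scaled to CPM by TMM in edgeR 4.0.16 (R 4.3.3). Differences are of mean log2(CPM + 1), computed with Python 3.11.15 and pandas 2.3.3 and checked on simulated counts. Replicates were compared, and none of the 153 library pairs agreed within sampling noise. There were 9 comparisons, 4 of them of maturation, and no p-value, since no animals are named.

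The members and lists were chosen with earlier results of these data known. Members named were, per complex, the highest mean TPM over GV oocytes, the lowest and highest mean maturation difference, the isoform sets, and up to 3 called per direction for co-culture and age; others illustrate a subunit's role and were chosen after their values were seen. Alternatives were DESeq2 1.42.0 size factors, library totals, leaving out mitochondrial genes, no filter, pseudocounts of 0.25 and 5, deposited TPM, each oocyte left out, and differences within title prefixes. Leaving out the Y01 metaphase II oocytes was added after seeing the data.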

Additional observations from a re-analysis of the deposited data

How the results depend on the processing

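Among the 3720 alternative values no called difference changed direction. Counts, and differences that were not called, could not be labelled as reversed, and uncalled medians did change sign. For MSC-IVM-MII 6wk against IVM-MII 6wk the members' median, 0.19, was -0.13 without IVM-MII 6wk oocyte 1. Of the alternatives for members' medians and counts called, 218 stayed and 30 moved. A median moved by at least the SD between oocytes, and a count by over 1.5 times or to or from 0. Over all alternatives the maturation medians over the members ran from -3.44 to -2.44 (IVM-MII 6wk), -3.04 to -1.94 (IVM-MII 12m), -3.15 to -2.54 (MSC-IVM-MII 6wk) and -3.86 to -2.80 (MSC-IVM-MII 12m), and the members called from 31 to 38, 29 to 35, 33 to 38 and 34 to 37. The complex IV median of IVM-MII 12m, -2.26, was -0.73 with no filter and -1.15 without IVM-MII 12m oocyte 2. The co-culture and age counts are small and moved by over 1.5 times. For MSC-IVM-MII 6wk against IVM-MII 6wk the count of members called, 1, was 0 with DESeq2 size factors, 0 with no filter, 6 without the Y01 metaphase II oocytes, and 2 to 7 with each oocyte left out. For MSC-IVM-MII 12m against IVM-MII 12m it was 3, and 1 with a pseudocount of 5, 6 within title prefixes, and 3 to 14 with each oocyte left out. For GV 12m against GV 6wk it was 1, and 1 to 3 with each oocyte left out. For IVM-MII 12m against IVM-MII 6wk it was 5, and 2 with DESeq2 size factors, 3 with library totals, 3 with no filter, 3 with TPM, and 4 to 21 with each oocyte left out. For MSC-IVM-MII 12m against MSC-IVM-MII 6wk it was 1, and 2 with TPM, and 1 to 12 with each oocyte left out. The cause was not tested, except that leaving out an oocyte sets 2 against 3 and makes groups easier to separate. With DESeq2 size factors the median over all genes moved from -0.52 to -0.68 in IVM-MII 12m against GV 12m and from -0.29 to -0.42 in MSC-IVM-MII 6wk against GV 6wk, and the members' medians from -2.55 to -2.75 and from -2.82 to -3.01. No paired analysis was possible because replicate numbers name oocytes and pair no samples. Within-prefix values could not be had between ages. Members near 0 after maturation have folds limited by 3 counts per library.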
